A study of Oryza sativa with 44 samples.

Results

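Jasmonates are plant hormones made from membrane lipids, and rice (Oryza sativa) uses them in wounding, defence and flower development. Here 10 rice genes of jasmonate synthesis and signalling were followed, out of 58089 features in the deposited tables. They were chosen by their MSU locus IDs and not by a cut on their values, although earlier results of these data were known. Of these, 5 encode JAZ repressors: OsTIFY11a (LOC_Os03g08310), OsTIFY11c (LOC_Os03g08320), OsTIFY11b (LOC_Os03g08330), OsTIFY11d (LOC_Os10g25290) and OsTIFY10c (LOC_Os09g26780). The other 5 are AOS1 (LOC_Os03g55800), AOS2 (LOC_Os03g12500), AOC (LOC_Os03g32314), OPR7 (LOC_Os08g35740) and OsMYC2 (LOC_Os10g42430). All 10 passed the filter on low counts in each of the 3 fits used, although OsTIFY11a passed in the DJ fit through the line osythdf1a.

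RNA was sequenced from seedlings of 2 weeks, raised in nutrient solution and with no organ named, in 44 libraries and 15 groups. The lines osythdf1a, osythdf2a and osythdf3a are CRISPR knockouts labelled DJ, and their control is the DJ wild type. The lines osythdf1b, osythdf1c, osythdf2b, osythdf3b, osythdf3c, osythdf4c and osythdf5c are CRISPR knockouts labelled NIP. RNAi-OsYTHDC1A and RNAi-OsYTHDF2C are RNAi knockdown lines, OE-OsYTHDF1A is an overexpression line, and all of these are set against the NIP wild type. There were 2 libraries of osythdf2a and 3 of each other group. The targeted genes encode YTH proteins, known as readers of N6-methyladenosine marks on transcripts. The labels give no allele, promoter or number of independent clones per line, so the line and the clone cannot be told apart. No jasmonate treatment or wounding is named.

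In the plastid, allene oxide synthase (AOS) and allene oxide cyclase (AOC) turn a fatty acid hydroperoxide into the precursor OPDA, which an OPDA reductase (OPR) then reduces in the peroxisome. Jasmonate joined to isoleucine brings JAZ proteins to the receptor COI1, and they are degraded. JAZ proteins otherwise hold back MYC2, a bHLH transcription factor that turns on jasmonate-responsive genes. JAZ genes and synthesis genes are themselves among the genes that jasmonate is known to induce, so their transcripts are widely used as a readout of the pathway.

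Library totals ranged from 13541543 to 24099581 counts. Levels are CPM (counts scaled to the library total), or FPKM (the same per length of gene) where genes are compared with each other. Fold changes come from a fit with TMM scaling between libraries, so a ratio of mean CPM can differ from them. Called means a Benjamini-Hochberg adjusted p under 0.05 over all genes tested, from edgeR's quasi-likelihood test, which gives every adjusted p below unless another tool is named. The backgrounds were checked with genes that tell the wild types apart. There were 504 genes with at least 1 CPM in every DJ library and at most 3 counts in every NIP library. Of these, osythdf2a had 401 at 1 CPM or more in every library, osythdf3a had 176 and osythdf1a had 152. Among lines with the NIP label the number was 282 in RNAi-OsYTHDC1A, 265 in osythdf1b, 247 in osythdf3c and 141 in osythdf4c, and between 35 and 57 in the other 6. For the 236 genes of the opposite kind it was 6 to 13 in the DJ lines and 114 to 162 in the NIP lines. None of the 10 genes was in either set, and what this difference contributes to their values was not tested. The transcripts of the targeted genes were not analysed here, so the line names are taken from the labels. In osythdf3a replicate 3, a pair of neighbouring loci took 12.5% of all counts, against 0.352% and 0.466% in replicates 1 and 2.

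The clearest rise of the 5 JAZ genes was in osythdf1c and osythdf1a, and the clearest fall was in osythdf4c and osythdf3b. In osythdf1c all 10 genes rose against NIP, 6 of them at least 2-fold. Of all genes tested there, 34.9% were called higher, 33.8% lower and 12.9% at least 2-fold higher. In osythdf1a all 5 JAZ genes rose at least 2-fold against DJ, OsMYC2 rose 2.04-fold, and AOS1 fell. That made 9 genes higher and 1 lower in osythdf1a (37.5% and 39.5% of all genes), with 6 at least 2-fold higher (14.7% of all genes). Without OsTIFY11a, which passed the filter through this line, 8 were higher, 5 of them at least 2-fold. RNAi-OsYTHDF2C had 9 genes higher (34.4% of all genes) and OsTIFY11a lower (34.3%) than NIP. The counts were the same in osythdf2b, 9 higher (33.2% of all genes) and OsTIFY11a lower (31.8%). The median log2 fold change of the 5 JAZ genes was 3.59 in osythdf1c, 2.11 in RNAi-OsYTHDF2C and 1.97 in osythdf2b. In osythdf1a, the 4 JAZ genes other than OsTIFY11a had values from 1.45 (OsTIFY10c) to 3.21 (OsTIFY11b). Over all genes the median lay between -0.02 and 0.02 in each of these comparisons. The median absolute log2 fold change over all genes was 0.52 in osythdf1c and in RNAi-OsYTHDF2C, 0.45 in osythdf2b and 0.70 in osythdf1a.

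In osythdf4c, 4 of the 5 JAZ genes fell, 3 of them at least 2-fold (10.1% of all genes). Of all 10 genes 1 rose (35.6% of all genes) and 5 fell (31.2%). In osythdf3b too 1 rose and 5 fell, where 19.8% of all genes rose, 20.1% fell and 6.35% fell at least 2-fold. The osythdf3c seedlings had 3 genes higher (41.8% of all genes) and 5 lower (36.7%) than NIP. There OsTIFY10c rose while OsTIFY11a, OsTIFY11c and OsTIFY11d fell. The median log2 fold change of the 5 JAZ genes was -1.93 in osythdf4c, -1.53 in osythdf3b and -1.02 in osythdf3c.

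The other lines showed mixed patterns. OE-OsYTHDF1A had 6 genes higher (32.1% of all genes) and 2 lower (31.2%) than NIP, and RNAi-OsYTHDC1A had 7 higher (38.7%) and 2 lower (35.1%). In osythdf5c, 5 were higher (31.6%) and 2 lower (31.0%), and in osythdf1b, 4 were higher (39.4%) and 3 lower (37.5%). Against DJ, osythdf3a had 5 higher (35.0%) and 2 lower (37.2%). There osythdf2a had 2 higher (20.9%) and 4 lower (30.9%), none of them by 2-fold (12.0% of all genes). Since many genes were called in every line, the sizes and directions below carry the description. The counts for osythdf2a rest on the scaling, since with library totals in place of TMM 3 genes were called there. Library totals changed 26 of the 140 values (10 genes in 14 comparisons), so counts of other lines moved too. In osythdf3a OPR7 lost its call, OsMYC2 turned to a fall (-0.15), and AOC (-0.31) and OsTIFY10c (-0.25) were called lower. In osythdf1a the calls of AOC and OPR7 were lost. Leaving out 1 library at a time gave 4 to 7 genes called in osythdf2a.

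**Figure D1:**
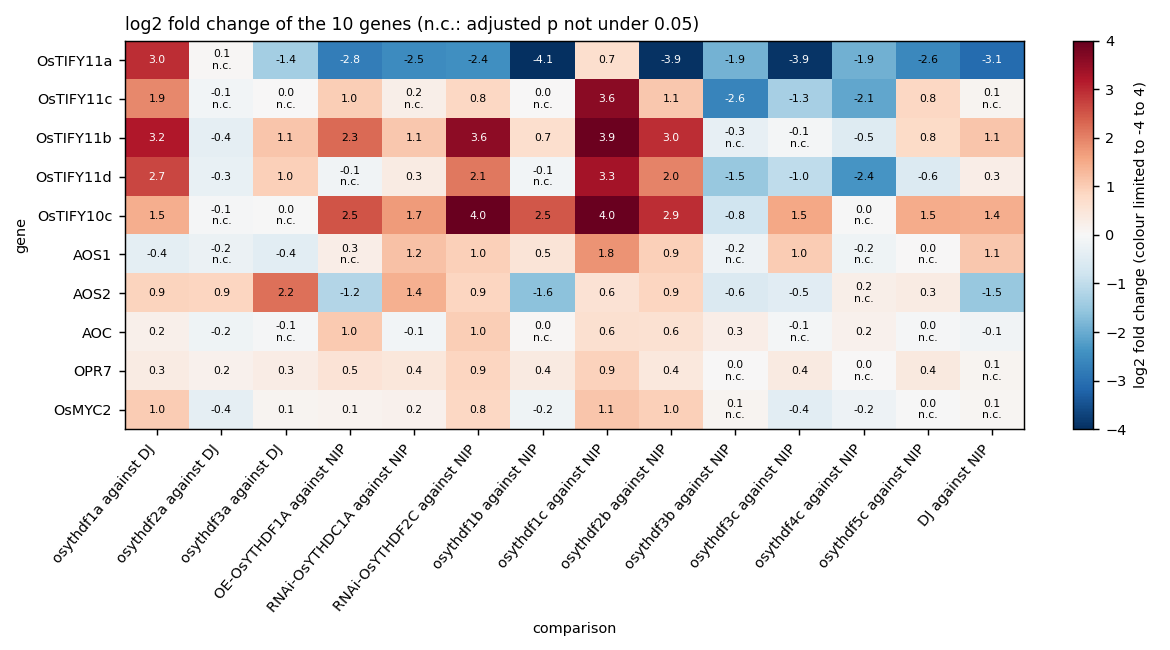
Log2 fold change of each of the 10 genes (rows) in each line against its own wild type and in DJ against NIP (columns), with red for higher and blue for lower, the colour limited to -4 to 4 and n.c. marking an adjusted p not under 0.05. The 5 JAZ genes in the upper rows are red throughout in osythdf1a and osythdf1c, while OsTIFY11a is blue in the other 9 NIP lines and in DJ against NIP.

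Among the synthesis genes, the 2 AOS genes differed in the lines in which they changed. AOS makes the allene oxide that commits the lipid to jasmonate. AOS1 had 15.7, 22.6 and 20.6 CPM in osythdf1c, against 5.29, 6.03 and 5.28 CPM in NIP. All 3 osythdf1c libraries lay above all 3 NIP libraries (log2 fold change 1.79, SE 0.13, adjusted p = 5.2e-16). AOS1 rose in 6 of the 13 lines, all of them in NIP, with log2 fold changes from 0.53 in osythdf1b to that in osythdf1c, and fell in osythdf1a (-0.41) and osythdf3a (-0.43). It averaged 4.57 ± 0.24 CPM (SD, n = 3) in osythdf3b, the lowest group, where the difference from NIP did not pass the test (log2 fold change -0.20, SE 0.16, adjusted p = 0.33).

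AOS2 was highest in RNAi-OsYTHDC1A, at 12.7, 13.6 and 12.8 CPM, against 4.20, 3.96 and 3.61 CPM in NIP (log2 fold change 1.42, SE 0.12, adjusted p = 2.3e-16). It was lowest in osythdf1b, with 1.79, 1.17 and 1.54 CPM in the 3 libraries, all below NIP (log2 fold change -1.63, SE 0.17, adjusted p = 1.3e-12). OE-OsYTHDF1A had nearly as little, 1.35, 1.84 and 1.53 CPM (log2 fold change -1.18, SE 0.18, adjusted p = 5.3e-08). The largest rise against a wild type was in osythdf3a, with 6.23, 7.26 and 6.10 CPM against 1.83, 1.64 and 1.56 CPM in the DJ wild type (log2 fold change 2.21, SE 0.18, adjusted p = 9.4e-16). AOS2 rose in all 3 DJ lines, in none of which AOS1 rose, and in 5 of the 10 NIP lines, and it fell in 4. Of these calls, the fall in osythdf3c was lost with library totals (-0.18, adjusted p = 0.26), both limma fits (0.26 in each) and without osythdf3c replicate 3 (0.063). The rise in osythdf5c (0.33) was lost in DESeq2 (0.059), without the filter (0.088), with limma on log2(FPKM + 0.1) and without either of 2 NIP or 2 osythdf5c libraries, while osythdf4c was called with library totals (0.38, 0.012).

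Because both AOS genes make the same product, their balance was computed per length. AOS2 held 42.6% ± 5.5 (SD, n = 3) of the summed AOS FPKM in osythdf3a, against 10.5% ± 1.4 in DJ. Among the NIP lines the share ran from 13.6% ± 2.7 in osythdf1b to 48.2% ± 7.2 in osythdf4c, against 41.2% ± 2.4 in NIP. The low shares in OE-OsYTHDF1A (20.7% ± 4.2), osythdf3c (20.1% ± 2.7) and osythdf1c (23.3% ± 3.1) came about differently. In osythdf1c both genes rose, AOS1 by more. In OE-OsYTHDF1A AOS2 fell and the change of AOS1 was not called (0.26), but was without OE-OsYTHDF1A replicate 3 (0.44, adjusted p = 0.018). In osythdf3c AOS1 rose by 1.01 on the log2 scale to 13.8, 13.5 and 13.5 CPM, while AOS2 had 3.94, 3.69 and 2.78 CPM, overlapping NIP (-0.46).

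**Figure D2:**
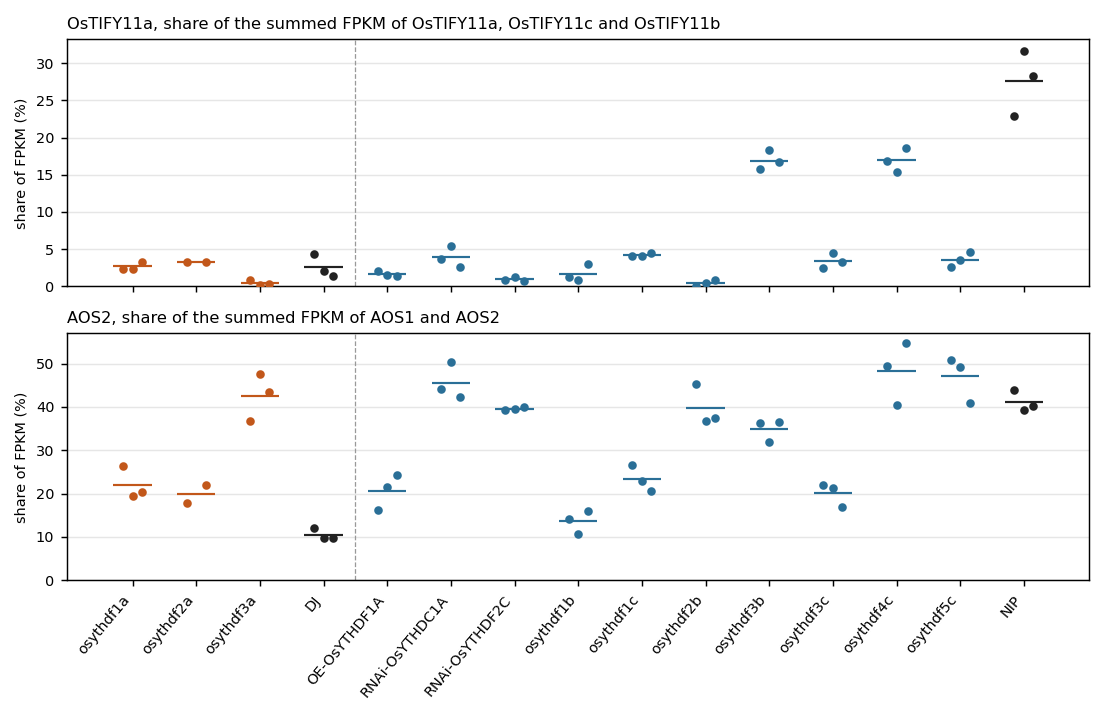
Share of the summed FPKM held by OsTIFY11a among the 3 neighbouring JAZ genes (upper panel, percent) and by AOS2 among the AOS genes (lower panel, percent), with 1 point per library and a bar at the mean of each group. OsTIFY11a holds 16.9% on average in osythdf3b and in osythdf4c and under 5% in every other line and in DJ, against 27.6% in NIP.

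AOC, the cyclase that sets the stereochemistry of OPDA, was the most abundant synthesis gene besides OPR7, with a median group level of 26.9 FPKM. It was highest in RNAi-OsYTHDF2C, at 131, 135 and 137 CPM against 62.1, 63.2 and 62.4 CPM in NIP (log2 fold change 1.00, SE 0.05, adjusted p = 2.9e-28). In OE-OsYTHDF1A the 3 libraries had 119, 117 and 115 CPM (log2 fold change 1.04, SE 0.05, adjusted p = 6.6e-29). These libraries, and those of osythdf1c and osythdf2b, all lay above those of the other 11 groups. AOC rose by less in osythdf2b (0.61), osythdf1c (0.65), osythdf3b (0.26) and osythdf4c (0.16). Its smaller differences depended on the scaling: -0.11 in RNAi-OsYTHDC1A and -0.13 in DJ against NIP were 0.20 and 0.16 with library totals, and 0.21 in osythdf1a against DJ was -0.04. In osythdf3c the value was -0.07 and not called, and 0.21 and called with library totals. AOC was not called in osythdf1b or osythdf3a either, but was with library totals, at 0.28 and -0.31. In osythdf2a AOC fell by 0.17 on the log2 scale, and was not called with library totals (-0.07).

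OPR7 is the reductase of the rice pathway. It rose in 11 of 13 lines and fell in none, always by less than 2-fold. The 8 rises in NIP lines share the same 3 NIP libraries, and those in the DJ lines share the 3 DJ libraries. Only osythdf3b had a lower group mean than NIP. With library totals the rises in osythdf1a (0.33) and osythdf3a (0.31) were 0.08 and 0.06 and not called, and osythdf4c was called at 0.16. The rise in osythdf2a (0.17) was not called without osythdf2a replicate 1 (adjusted p = 0.15). The highest levels were 64.0, 68.4 and 67.9 CPM in RNAi-OsYTHDF2C and 68.1, 58.2 and 70.5 CPM in osythdf1c, against 33.2, 32.9 and 36.7 CPM in NIP. Their log2 fold changes were 0.86 (SE 0.05, adjusted p = 1.7e-21) and 0.91 (SE 0.06, adjusted p = 2.2e-22). In osythdf3b and osythdf4c the log2 fold change was 0.01 in each (adjusted p = 0.93) and the libraries overlapped those of NIP. Per length OPR7 and AOC stood well above the AOS genes, with median group levels of 29.7 FPKM for OPR7, 4.74 FPKM for AOS1 and 1.94 FPKM for AOS2.

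**Figure D3:**
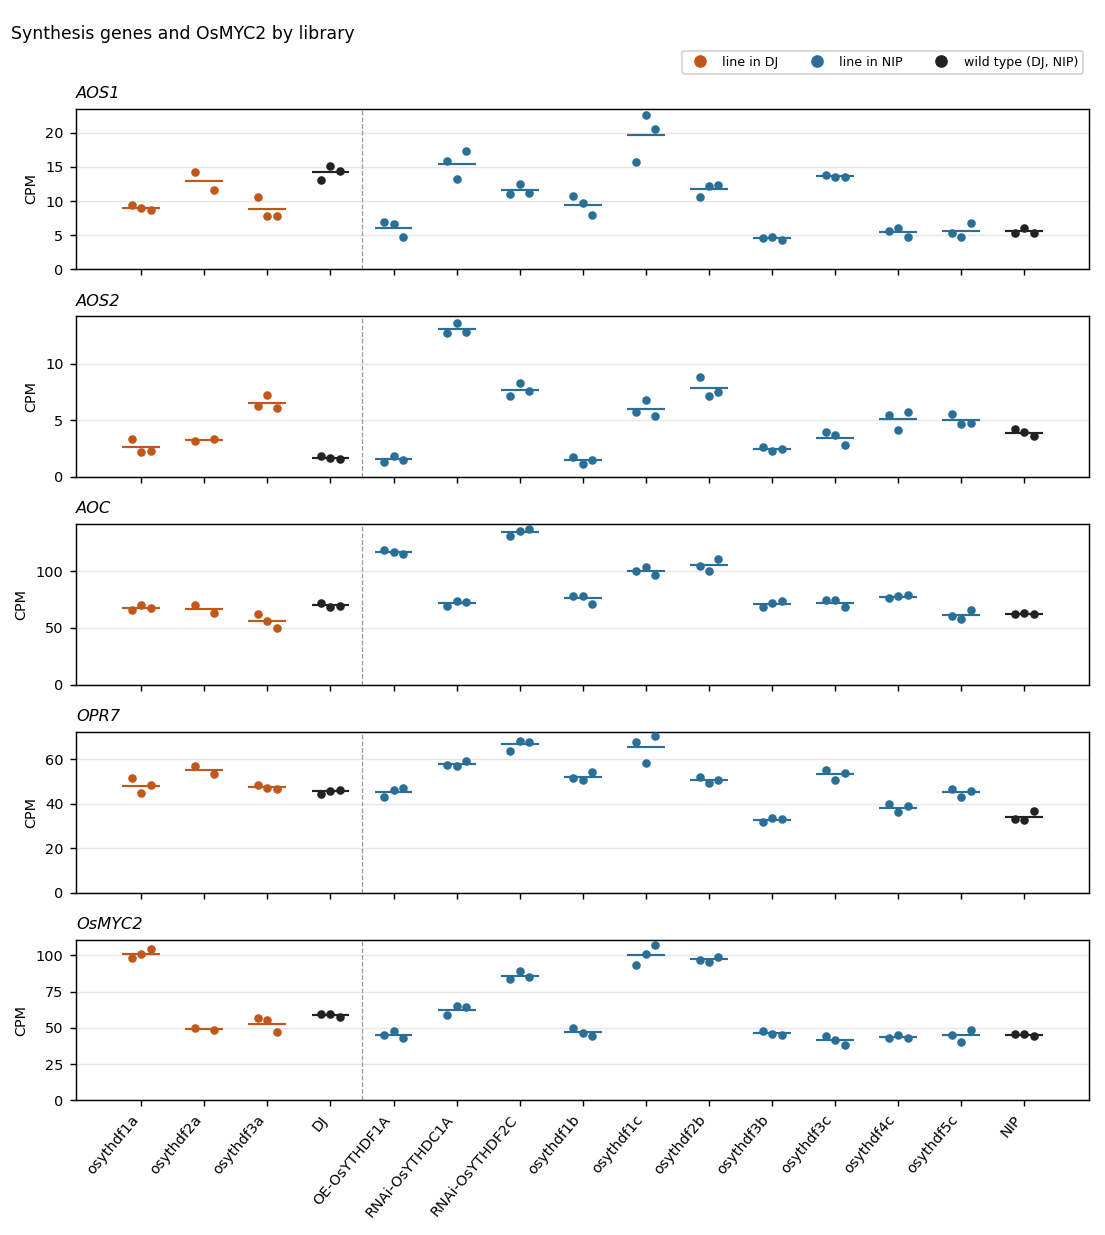
CPM of the 4 synthesis genes and OsMYC2 (panels) in every library (points) of the 15 groups, with bars at the group means and the wild type at the right end of its lines. AOS2 reaches 12.7 to 13.6 CPM in RNAi-OsYTHDC1A and stays between 1.17 and 1.79 CPM in osythdf1b, while OsMYC2 separates osythdf1a, osythdf1c, osythdf2b and RNAi-OsYTHDF2C from all other groups.

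Among the JAZ genes, OsTIFY11a had its own pattern. It was weakly expressed everywhere, with a median group level of 0.469 FPKM, the lowest of the 10 genes. The line osythdf1b had 0.153, 0.102 and 0.337 CPM, against 2.35, 3.10 and 3.34 CPM in NIP (log2 fold change -4.07, SE 0.33, adjusted p = 5.6e-17). The 3 osythdf2b libraries had 0, 3 and 8 counts, against 56, 72 and 76 counts in NIP (log2 fold change -3.95, SE 0.34, adjusted p = 1.5e-15), and those of osythdf3c had 3, 6 and 4 counts (-3.91, SE 0.33, adjusted p = 1.5e-16). Outside osythdf1c, no library of the other 9 NIP lines reached 1 CPM. In each of these 9 lines OsTIFY11a fell at least 3.74-fold, and all 9 differences share the same 3 NIP libraries. The DJ wild type lay in the range of the lowered lines, with 0.732, 0.329 and 0.215 CPM, and the difference of DJ from NIP was -3.09 (SE 0.31, adjusted p = 7.8e-15). Without osythdf2b replicate 3 the log2 fold change of that line was -5.10, without osythdf1b replicate 3 it was -4.69 in osythdf1b, and without DJ replicate 1 it was -3.69 in DJ against NIP.

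OsTIFY11a rose in osythdf1c and in osythdf1a. In osythdf1c it reached 4.55, 4.87 and 4.86 CPM, above each NIP library (log2 fold change 0.67, SE 0.19, adjusted p = 0.0019), a call that was lost with limma on log2(FPKM + 0.1) (0.69, adjusted p = 0.084). In osythdf1a it reached 2.43, 2.45 and 3.38 CPM, against the DJ values above (log2 fold change 2.96, and 3.55 without DJ replicate 1). It passed the filter in the DJ fit through this line, and it was also called in the fit without that filter. So osythdf1a came to a level that overlapped that of NIP. In osythdf2a the 0.506 and 0.428 CPM overlapped DJ (log2 fold change 0.06, SE 0.52, adjusted p = 0.94). In osythdf3a the 5, 1 and 1 counts, against 12, 6 and 4 counts in DJ, gave -1.36 on the log2 scale (SE 0.63, adjusted p = 0.048) and the libraries overlapped. That call was lost without filtering low counts (adjusted p = 0.06), in DESeq2 (0.061), with the replicate number as a block (0.05), and without DJ replicate 1 (-0.76, 0.35), osythdf3a replicate 2 (0.19) or osythdf3a replicate 3 (0.11). Without osythdf3a replicate 1 the value was -2.35.

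OsTIFY11a, OsTIFY11c and OsTIFY11b follow each other directly in the reference gene table. Neighbouring copies of 1 family can share reads, and how such reads were counted is not given in the sources used here, so the split between the 3 is uncertain. OsTIFY11a held 16.9% ± 1.3 (SD, n = 3) of their summed FPKM in osythdf3b and 16.9% ± 1.6 in osythdf4c, against 27.6% ± 4.4 in NIP. In the other NIP lines it held between 0.418% ± 0.43 in osythdf2b and 4.19% ± 0.26 in osythdf1c. In osythdf1c the low share came with a rise of all 3 genes, OsTIFY11a the least.

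OsTIFY11c had the widest range of the 10 genes, 82.0-fold between osythdf1c and osythdf3b. The 3 osythdf1c libraries had 57.2, 55.8 and 56.2 CPM, against 4.75, 3.66 and 5.28 CPM in NIP (log2 fold change 3.59, SE 0.10, adjusted p = 5.1e-40). The next group, osythdf1a, had 18.1, 20.7 and 18.6 CPM against 6.53, 5.81 and 5.81 CPM in the DJ wild type (log2 fold change 1.91, SE 0.11, adjusted p = 7.1e-23). At the other end stood osythdf3b with 0.705, 0.505 and 0.853 CPM (log2 fold change -2.64, SE 0.20, adjusted p = 2.2e-17), osythdf4c with 1.03, 1.05 and 1.44 CPM (-2.09, SE 0.18, adjusted p = 1.5e-15) and osythdf3c with 2.33, 2.37 and 1.96 CPM (-1.32, SE 0.16, adjusted p = 5.0e-11). These 3 lines lay below every other group with no overlap, and osythdf1c lay above every other group. Rises in osythdf2b (1.09), OE-OsYTHDF1A (0.97), RNAi-OsYTHDF2C (0.84) and osythdf5c (0.82) were smaller.

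OsTIFY11b, its neighbour, was highest in osythdf1a, at 90.6, 90.2 and 90.7 CPM against 11.6, 11.7 and 11.5 CPM in the DJ wild type (log2 fold change 3.21, SE 0.06, adjusted p = 4.9e-43). It rose to 65.9, 76.5 and 62.7 CPM in osythdf1c, against 4.45, 4.05 and 4.58 CPM in NIP (log2 fold change 3.93, SE 0.09, adjusted p = 1.1e-38). It rose to 54.2, 57.9 and 58.0 CPM in RNAi-OsYTHDF2C (3.59, SE 0.10, adjusted p = 1.4e-36). It rose to 34.4, 38.3 and 40.0 CPM in osythdf2b (2.96, SE 0.10, adjusted p = 1.2e-31). These 4 lines followed each other at the top of the order with no overlap between neighbours. OsTIFY11b fell in osythdf4c (-0.50, adjusted p = 0.0036) and in osythdf2a (-0.36, adjusted p = 0.0016). The call in osythdf2a was lost with library totals (0.057), in both limma fits (0.098 and 0.096) and without osythdf2a replicate 3 (-0.22, 0.14). It averaged 3.29 ± 0.31 CPM (SD, n = 3) in osythdf3b, where the difference was not called (-0.34, SE 0.15, adjusted p = 0.071) but was with library totals (0.023), without the filter (0.042), in both limma fits and with only the 2 groups compared (0.038).

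OsTIFY11d, a JAZ gene on chromosome 10, was the most abundant JAZ gene of the 5 per length, with a median group level of 12.4 FPKM. It reached 94.6, 88.1 and 103 CPM in osythdf1c, against 9.20, 9.39 and 9.51 CPM in NIP (log2 fold change 3.32, SE 0.08, adjusted p = 2.7e-34). It reached 77.9, 73.7 and 72.4 CPM in osythdf1a, against 13.4, 14.7 and 13.4 CPM in DJ (2.68, SE 0.06, adjusted p = 3.2e-40). In RNAi-OsYTHDF2C it had 44.4, 44.9 and 41.6 CPM and in osythdf2b 38.0, 39.7 and 43.8 CPM, and the libraries of these lines overlapped each other. The lowest were osythdf4c with 2.06, 2.61 and 1.44 CPM (-2.35, SE 0.16, adjusted p = 4.9e-18) and osythdf3b with 3.03, 2.83 and 3.36 CPM (-1.53, SE 0.14, adjusted p = 5.2e-13). Unlike OsTIFY11b, it also fell in osythdf3c (-1.02) and osythdf5c (-0.56), and its value in OE-OsYTHDF1A was -0.14 (SE 0.12, adjusted p = 0.33). With library totals OsTIFY11d was called lower in OE-OsYTHDF1A (-0.28, adjusted p = 0.035).

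OsTIFY10c had 52.6, 53.6 and 55.9 CPM in RNAi-OsYTHDF2C and 52.1, 52.2 and 51.0 CPM in osythdf1c, against 3.15, 3.06 and 3.52 CPM in NIP. Their log2 fold changes were 3.95 (SE 0.08, adjusted p = 4.7e-47) and 3.96 (SE 0.08, adjusted p = 6.0e-47). It was the JAZ gene that rose most often among the NIP lines, in 8 of 10, and each of these rises was at least 2-fold. Among them were lines in which other JAZ genes fell or were not called. All 8 differences share the same 3 NIP libraries, and of the 15 groups only osythdf3b had a lower mean than NIP. OsTIFY10c had 12.3, 11.6 and 10.7 CPM in osythdf3c (log2 fold change 1.54, SE 0.10, adjusted p = 9.9e-22). It had 21.0, 21.3 and 21.5 CPM in osythdf1b (2.47, SE 0.09, adjusted p = 5.1e-34). It fell in osythdf3b alone, to 1.62, 1.97 and 1.75 CPM (-0.80, SE 0.14, adjusted p = 5.4e-06), and in osythdf4c the libraries overlapped NIP (-0.01, adjusted p = 0.98). With library totals it was also called lower in osythdf3a (-0.25, adjusted p = 0.035). The DJ wild type had 11.7, 10.9 and 10.1 CPM, 2.73-fold above NIP.

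**Figure D4:**
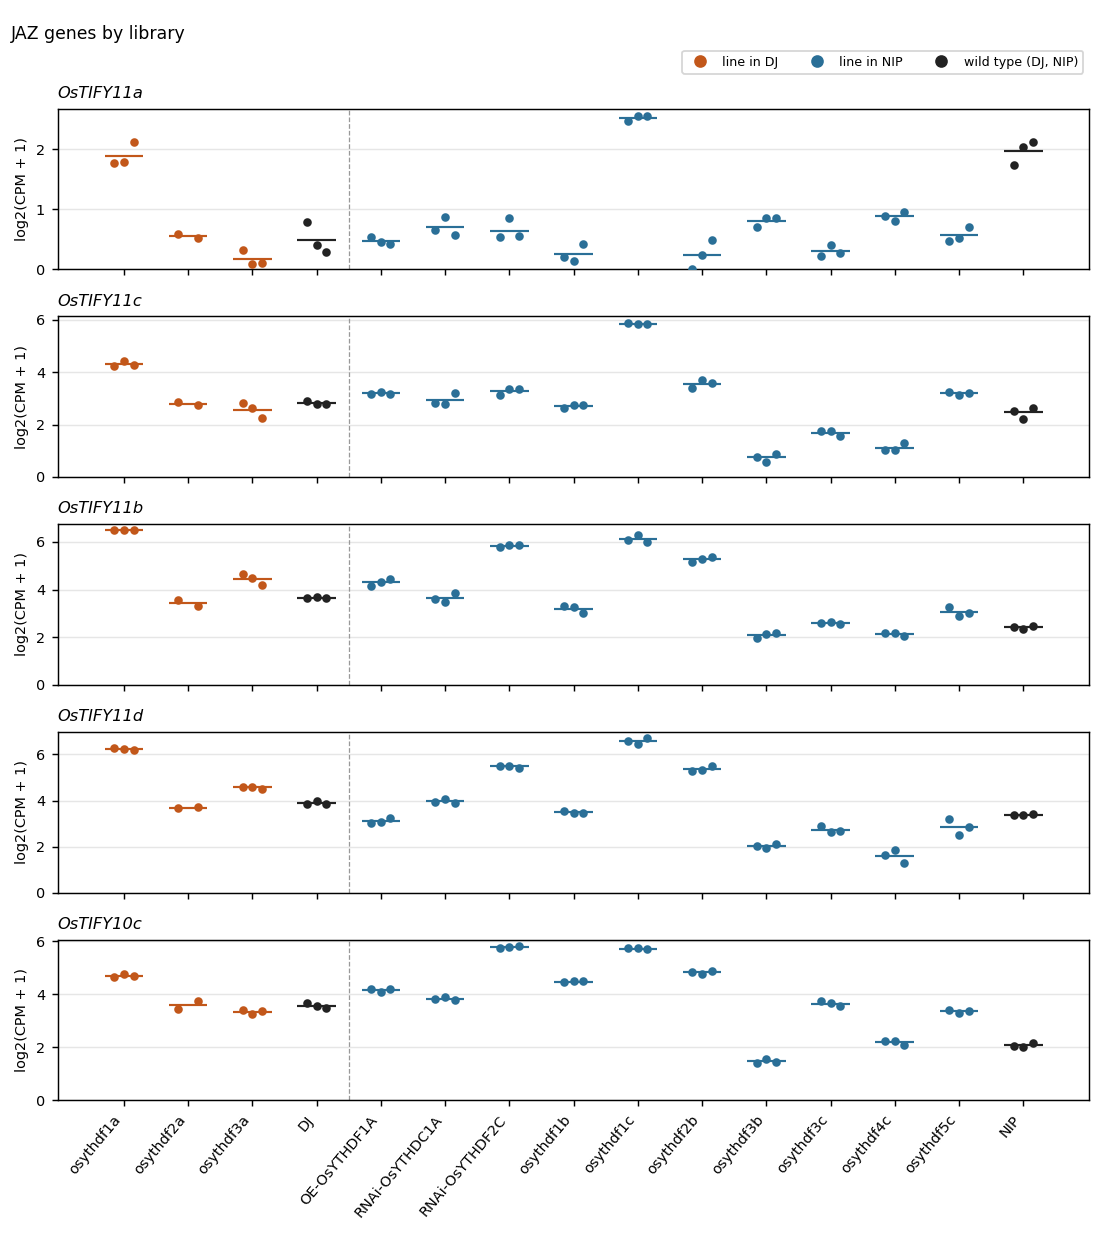
Log2(CPM + 1) of the 5 JAZ genes (panels) in every library (points) of the 15 groups, with bars at the group means, the lines of each background left of their wild type. The groups osythdf1a and osythdf1c stand at or near the top of the OsTIFY11c, OsTIFY11b and OsTIFY11d panels and osythdf3b and osythdf4c at the bottom, while OsTIFY11a in NIP stands above all lines but osythdf1c and the overlapping osythdf1a.

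OsMYC2, the factor that JAZ proteins restrain, moved over a narrower range, 2.44-fold between its extreme groups. It had 98.3, 101 and 104 CPM in osythdf1a, against 59.5, 59.5 and 57.5 CPM in the DJ wild type (log2 fold change 1.03, SE 0.04, adjusted p = 1.7e-29). It had 93.6, 101 and 107 CPM in osythdf1c, against 45.4, 45.8 and 44.3 CPM in NIP (1.12, SE 0.05, adjusted p = 1.8e-25). The 3 osythdf2b libraries lay between 95.6 and 98.7 CPM (0.96, SE 0.05, adjusted p = 1.9e-22), and RNAi-OsYTHDF2C had 83.4, 88.9 and 84.7 CPM (0.82, SE 0.05, adjusted p = 1.2e-19). The libraries of these 4 lines lay above all those of the other 11 groups. The other group means ran from 41.4 to 62.5 CPM, with falls in osythdf3c (-0.41), osythdf2a (-0.37) and osythdf4c (-0.20). OsMYC2 was also called higher in RNAi-OsYTHDC1A (58.5 to 64.9 CPM) and in OE-OsYTHDF1A (43.2 to 47.9 CPM). The call in RNAi-OsYTHDC1A was lost without its replicate 2 (0.13, adjusted p = 0.06). That in OE-OsYTHDF1A was lost with library totals (0.004, 0.96) and in both limma fits (0.95 in each). It was also lost without NIP replicate 3 (0.067) or OE-OsYTHDF1A replicate 2 (0.13). The fall in osythdf4c was -0.05 and not called with library totals (adjusted p = 0.43) and in both limma fits, and that in osythdf3c was -0.12 and -0.13 and not called in the limma fits (0.066 and 0.063). The fall in osythdf1b (-0.19) and the rise in osythdf3a (0.10) changed sign with library totals, to 0.06 and -0.15.

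The wild types differed from each other at 7 of the 10 genes, 4 higher and 3 lower in DJ, where 37.7% of all genes were higher and 37.4% lower. OsTIFY10c (log2 fold change 1.45), OsTIFY11b (1.12), AOS1 (1.07) and OsTIFY11d (0.27) were higher in DJ. OsTIFY11a (-3.09) and AOS2 (-1.52) were lower, as was AOC by 0.13 on the log2 scale, which turned to 0.16 with library totals. The call of OsTIFY11d was lost without DJ replicate 2 (adjusted p = 0.063). OPR7 (0.12) and OsMYC2 (0.09) were not called, but were called in DESeq2 (0.023 and 0.045) and with library totals (0.41 and 0.38), and OsTIFY11c (0.11) was called with library totals (0.40). The NIP lines with the most DJ genes at 1 CPM or more share the NIP libraries with this comparison. Their log2 fold changes for the 7 genes are given in the order RNAi-OsYTHDC1A, osythdf1b and osythdf3c. OsTIFY10c was at 1.72, 2.47 and 1.54, OsTIFY11b at 1.09, 0.67 and -0.09, and OsTIFY11d at 0.34, -0.12 and -1.02. OsTIFY11a was at -2.51, -4.07 and -3.91. AOS1 was at 1.17, 0.53 and 1.01, AOS2 at 1.42, -1.63 and -0.46, and AOC at -0.11, 0.03 and -0.07.

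Each line was also set against the mean of the other lines of its background, which leaves the wild type out. In osythdf1c all 10 genes were higher than in the other NIP lines (36.2% of all genes, with 31.3% lower), OsTIFY11c by 3.82 (SE 0.06, adjusted p = 1.8e-52) and OsTIFY11a by 3.56 (SE 0.17, adjusted p = 2.9e-27) on the log2 scale. RNAi-OsYTHDF2C had 9 genes higher (30.7%) and none lower (28.1%), and osythdf2b had 8 higher (30.1%) and OsTIFY11a lower (25.5%). Among the DJ lines, osythdf1a had 7 genes higher (33.2%) and AOS2 lower (35.0%). All 5 JAZ genes were among its 6 that were at least 2-fold higher (8.01% of all genes), with OsMYC2, and OsTIFY11a again had passed the filter through this line.

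JAZ genes were lowered against other lines as well. In osythdf3b, 9 genes were lower (36.4% of all genes) and OsTIFY11a higher (36.7%), with OsTIFY11c at -3.10 (SE 0.16, adjusted p = 1.4e-25) and OsTIFY10c at -3.08 (SE 0.09, adjusted p = 1.7e-38). In osythdf4c, 8 genes were lower (33.4%) and OsTIFY11a higher (38.0%), with OsTIFY11d at -2.84 (SE 0.13, adjusted p = 8.5e-25). In osythdf3c, AOS1 was higher (41.0%) and 8 genes lower (36.3%). In osythdf2a none was higher (39.7%) and 8 were lower (35.5%) than in the other DJ lines. OsTIFY11a was therefore above the other NIP lines in osythdf3b (0.71) and osythdf4c (0.68), although below NIP in both. The remaining comparisons were mixed. OE-OsYTHDF1A had 5 higher (32.6%) and 4 lower (33.1%), and osythdf1b had 1 higher (38.1%) and 6 lower (33.3%). In osythdf5c 2 were higher (30.3%) and 6 lower (27.1%), in RNAi-OsYTHDC1A 2 were higher (37.5%) and 4 lower (31.7%), and in osythdf3a 1 was higher (28.7%) and 6 lower (26.9%).

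Over the 15 group means of log2(CPM + 1), OsTIFY11c, OsTIFY11b, OsTIFY11d and OsTIFY10c varied together, with Pearson r from 0.81 to 0.94 over their 6 pairs. OsTIFY11a had r from 0.11 to 0.52 with these 4, and OsMYC2 had r from 0.74 to 0.92 with them. Between replicates of a group, the 4 JAZ genes had r from -0.02 to 0.55. There OPR7 had r of 0.005 with OsTIFY10c and -0.13 with AOS1. Over the group means OPR7 followed OsTIFY10c (0.88) and AOS1 (0.83) most closely, and the highest r of AOS2 was 0.38, with OPR7. These values describe 15 points that share libraries, depth and, in part, controls.

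A wider list of 25 jasmonate genes was read alongside, of which 21 passed the filter on low counts. In osythdf1a 18 of the 21 rose (37.5% of all genes) and 3 fell (39.5%), although 3 of the 21 averaged under 1 CPM in DJ. In osythdf1c 14 rose (34.9%) and 4 fell (33.8%), and in osythdf3a 14 rose (35.0%) and 3 fell (37.2%). In osythdf3c 4 rose (41.8%) and 15 fell (36.7%), in osythdf1b 4 rose (39.4%) and 15 fell (37.5%), and in osythdf4c 6 rose (35.6%) and 12 fell (31.2%). The list was more evenly split in RNAi-OsYTHDF2C, with 10 higher (34.4%) and 7 lower (34.3%), and in osythdf2b, with 10 (33.2%) and 7 (31.8%). In osythdf3b 8 rose (19.8%) and 10 fell (20.1%), the same counts as in OE-OsYTHDF1A (32.1% and 31.2%) and osythdf5c (31.6% and 31.0%). RNAi-OsYTHDC1A had 8 higher (38.7%) and 8 lower (35.1%), and osythdf2a had 6 (20.9%) and 4 (30.9%). In DJ against NIP 4 were higher (37.7%) and 12 lower (37.4%). The medians of the list's log2 fold changes were 1.28 in osythdf1a and 0.89 in osythdf1c, against -0.68 in osythdf3c and -0.63 in osythdf4c. The medians over all genes lay between -0.02 and 0.07. The median absolute values over all genes were 0.70, 0.52, 0.76 and 0.46 in the same order. The 7 tested JAZ genes outside the 10 all rose in osythdf1c (34.9% of all genes). Of these 7, 6 rose in each of osythdf1a (37.5%), RNAi-OsYTHDF2C (34.4%), osythdf2b (33.2%) and OE-OsYTHDF1A (32.1%). In osythdf3b 3 of them rose (19.8%) and 2 fell (20.1%), and in osythdf4c 2 rose (35.6%) and 3 fell (31.2%). In osythdf3c 4 of the 7 rose (41.8%) and 2 fell (36.7%). The adaptor NINJA1 links JAZ proteins to a corepressor. It and the receptors COI1a, COI1b and COI2 stayed below a 2-fold change everywhere except for COI1b in osythdf3c.

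Of this list, 6 loci were called at least 2-fold changed in the most of the 14 comparisons. LOC_Os08g39840 was so in 13: it fell in every NIP line, furthest to 0.124 ± 0.027 CPM (SD, n = 3) in osythdf3c, against 13.4 ± 0.38 CPM in NIP (log2 fold change -6.95, SE 0.27, adjusted p = 3.8e-32). In the DJ background it rose in all 3 lines, to 15.5 ± 0.72 CPM in osythdf1a against 1.52 ± 0.23 CPM in DJ (3.60, SE 0.14, adjusted p = 4.3e-29). Unlike OsTIFY11a, it fell in osythdf1c too (-0.83), and it rose in osythdf2a (1.66) and osythdf3a (1.52).

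The JAZ gene OsTIFY11e was changed in 12 comparisons at low levels, with 4.62 ± 0.38 CPM in osythdf1a against 0.349 ± 0.28 CPM in the DJ wild type (log2 fold change 3.99, SE 0.30, adjusted p = 2.0e-17). LOC_Os04g23550 was changed in 10, with 42.4 ± 0.68 CPM in osythdf1c and 0.0498 ± 0.050 CPM in osythdf4c, against 1.67 ± 0.20 CPM in NIP (4.62 and -4.97, SE 0.11 and 0.40). LOC_Os12g05440 was changed in 9, from -4.48 in OE-OsYTHDF1A to 1.99 in osythdf1c. Its levels were low, 0.033 ± 0.057 CPM in OE-OsYTHDF1A and 4.24 ± 0.57 CPM in osythdf1c, against 1.03 ± 0.13 CPM in NIP. JAmyb, a MYB factor known as jasmonate-inducible, was changed in 8 comparisons, from -1.64 in osythdf3c to 1.31 in osythdf1a. OPR1, of the same enzyme family as OPR7, was changed in 7 comparisons, from -3.67 in osythdf4c to 1.05 in osythdf2a.

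**Figure D5:**
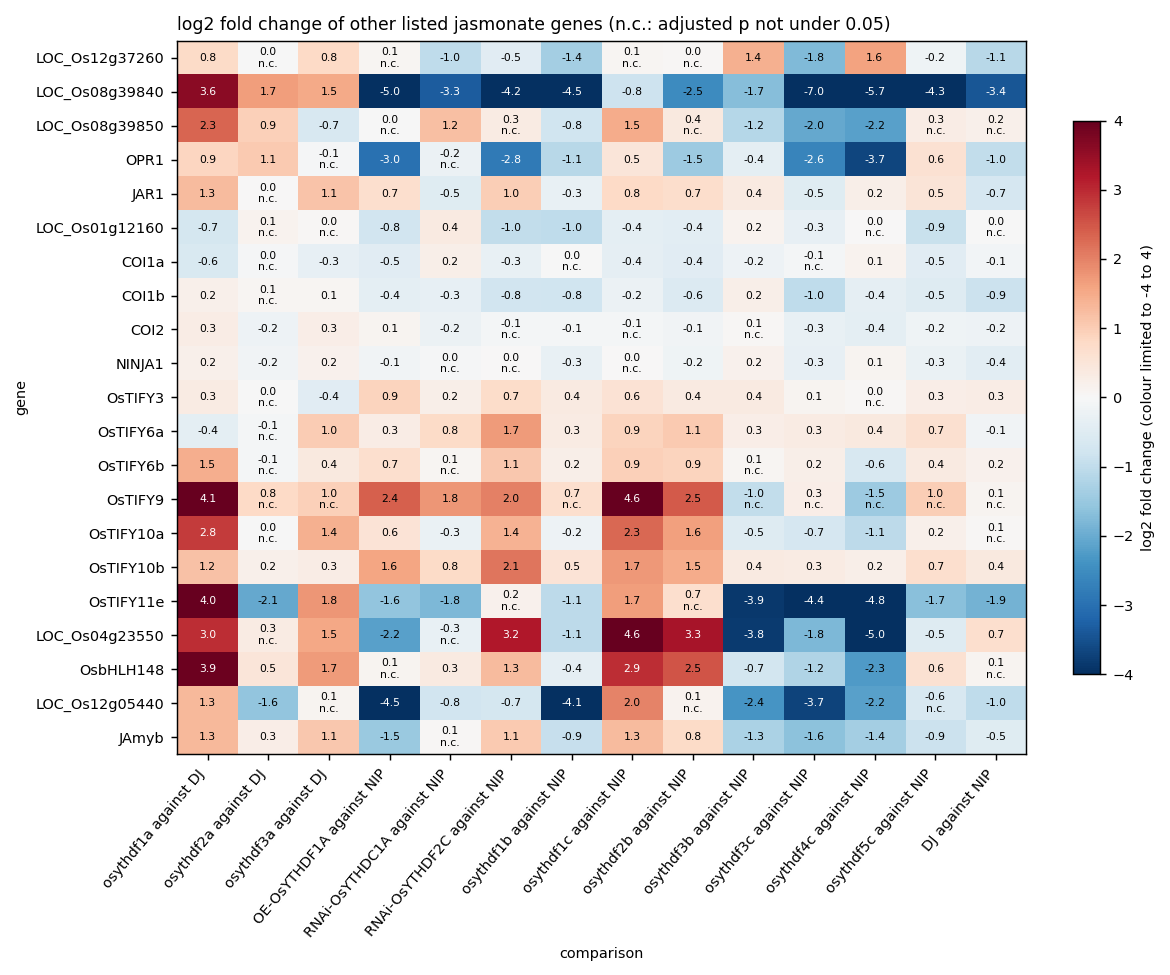
Log2 fold change of the 21 tested genes of the wider jasmonate list (rows) in each line against its own wild type and in DJ against NIP (columns), coloured as for the 10 genes, with n.c. for an adjusted p not under 0.05. The rows of OsTIFY11e and LOC_Os04g23550 are deep red in osythdf1a and deep blue in osythdf4c, and the receptor rows stay pale.

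Among 16713 loci with at least 5 CPM on average, those most like the mean profile of the 5 JAZ genes over the 15 groups were LOC_Os02g32580 (r = 0.93), LOC_Os03g18030 (0.93), the JAZ gene OsTIFY10a (0.91), LOC_Os02g04010 (0.91) and LOC_Os01g51920 (0.91). OsTIFY10a averaged 250.4 ± 2.3 CPM (SD, n = 3) in osythdf1c, against 49.7 ± 1.1 CPM in NIP, and its highest level was 369.6 ± 2.9 CPM in osythdf1a, against 63.4 ± 1.1 CPM in DJ. All 5 loci were highest in osythdf1a. LOC_Os03g18030 had its lowest level in osythdf3b and the other 4 in osythdf4c. The 5 loci were picked for likeness over these same groups, so high and low levels in such lines came with the choice.

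Loci listed as leaf and root markers were summed in each group, since the labels name no organ. Of the 7 leaf loci used, 1 had no count in any library. Together they summed to 64489 CPM in OE-OsYTHDF1A, 39184 in osythdf1c and 7668 in osythdf3c, against 34678 in NIP. In the DJ background they summed to 41049 CPM in osythdf1a, 30290 in osythdf3a and 15790 in osythdf2a, against 20030 in DJ. The 8 root loci summed to 535 CPM in osythdf2a, 297 in osythdf1a and 254 in osythdf3a, against 79.4 in DJ, and to 335 in osythdf4c and 213 in OE-OsYTHDF1A, against 21.5 in NIP. Between 3 and 5 of the 8 root loci averaged under 1 CPM in each group. Most of each root sum came from the silicon transporters Lsi1 and Lsi2, at 247 and 280 CPM in osythdf2a against 46.8 and 29.2 in DJ, and at 159 and 168 in osythdf4c, where the NIP wild type had 13.2 CPM of Lsi1. The other 6 root loci summed to 8.34 CPM in osythdf2a against 3.43 in DJ, and to 7.98 in osythdf4c against 2.27 in NIP. For osythdf1c and osythdf3b the root sums were 36.8 and 23.0 CPM. They were 85.9 CPM in RNAi-OsYTHDF2C, 79.7 in RNAi-OsYTHDC1A, 64.4 in osythdf2b, 54.4 in osythdf3c, 38.4 in osythdf1b and 19.8 in osythdf5c. In bulk libraries such as these, fewer cells of a type and less RNA per cell cannot be told apart, and the part of organ makeup in the results was not tested.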

How the data were processed

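RNA-seq was done on 44 libraries. The tools named in the submitters' processing notes are HISAT2 and featureCounts, with the build IRGSP-1.0. Tool versions and the use of strand in counting were not given in the sources used here. The authors deposited raw counts per gene, with no normalization, and FPKM, which equal the count over the column total and a fixed gene length. Another 40 columns of each matrix have no sample here and were not used. The test was the two-sided quasi-likelihood test of edgeR 4.0.16 (R 4.3.3, TMM, filterByExpr, robust) with Benjamini-Hochberg adjustment over all genes. It was fitted to the 33 libraries labelled NIP (27584 genes), the 11 labelled DJ (26925 genes) and, for DJ against NIP, all 44 (28833 genes). Replicates had a biological coefficient of variation of 4.60% (NIP) and 5.39% (DJ). The series calls the replicates biological, and p-values reflect the spread between libraries alone. No replicates were merged: their 43 pairs had a chi-square per degree of freedom of 1.58 to 120. The same replicate number did not mark paired libraries. The script was tested on simulated data. Alternatives were DESeq2 1.42.0, its size factors in edgeR, library totals, no filter on low counts, the replicate number as a block, limma 3.58.1 on the deposited FPKM as log2(FPKM + 1) or log2(FPKM + 0.1), only the 2 groups compared, and leaving out each library.

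The 10 genes and all lists were chosen with earlier results of these data known. The files give locus IDs only. Names of the 10 genes come with their selection, and 9 of them were found in the RefSeq gene table (assembly ASM3414082v1) on the chromosome of the locus ID, as were 16 of the 25 names of the wider list. Loci of that list without such a name are given by ID. Genes outside the 10 were named by rule: the 6 list loci called at least 2-fold changed in the most comparisons, and the 5 loci, of those with at least 5 CPM on average, with the highest Pearson r to the mean of the standardised JAZ profiles.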

Additional observations from a re-analysis of the deposited data

How the results depend on the processing

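Of 140 values (10 genes in 14 comparisons, each line against its wild type and DJ against NIP), 111 were called and 104 kept direction and side of the threshold under every alternative that was run. Changes by setting were 26 results with library totals, 25 and 26 with limma on log2(FPKM + 1) and log2(FPKM + 0.1), 7 with DESeq2, 7 with only the 2 groups compared, 5 without a filter on low counts, 4 with DESeq2 size factors and 3 with the replicate number as a block. Leaving out 1 library at a time changed 17 results. Relative to TMM, library totals shifted the median of all genes by between -0.25 and 0.31 (log2).

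Reversals came with library totals and both limma fits, in that order. For AOC they gave 0.208, 0.1995 and 0.2065 in osythdf3c, 0.200, 0.192 and 0.199 in RNAi-OsYTHDC1A, 0.161, 0.155 and 0.160 in DJ against NIP, and -0.042, -0.041 and -0.042 in osythdf1a. For OsMYC2 they gave 0.057, 0.053 and 0.056 in osythdf1b, and -0.149, -0.150 and -0.157 in osythdf3a. Members called in osythdf2a were 3 with library totals, against 6 with TMM.

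With the replicate block, OsTIFY11a in osythdf3a lost its call and AOS1 in osythdf2a and OPR7 in DJ against NIP gained one. The block changed no other call of the 140. Over 9948 genes, the deviations of libraries with the same number correlated between -0.156 and 0.163, no comparison had every pair above 0.1, and in 2 of 14 comparisons every library correlated best with its own number. With only the 2 groups compared, OsTIFY11a was filtered out in osythdf2a and osythdf3a, which left 138 values.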
